A study of Mus musculus with 2 samples.

Results

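The RAB GTPases and the machinery that docks and fuses secretory vesicles were followed in luminal cells of the mouse mammary gland that differ in the activity of the Tbx3 locus. Members were chosen by gene symbol alone, among genes with a probe set of their own. The symbols were Rab, Syt, Sytl, Vamp, Stx, Stxbp, Snap or Exoc followed by a number, or Unc13 followed by a letter from a to d. The rule found 98 of the 13869 genes in the table, 48 RAB genes and 50 others, on 180 probe sets. The samples were luminal cells with high (Venus High) or with low or no (Venus Low) reporter fluorescence, 200000 of each, sorted from 1 pool of 3 adult virgin females aged 5 months. These Tbx3-Venus-KI mice, on the FVB background, carry the gene of a yellow fluorescent protein in place of 1 Tbx3 allele, so both populations are heterozygous for Tbx3, and the reporter is driven by the endogenous locus. Luminal cells were gated by CD24 and CD49f after dead, CD45+ and stromal cells had been removed. Each population was hybridized to 1 array, so no difference below has a replicate check, and none has a p-value.

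A RAB protein is a small GTPase that marks the surface of 1 kind of membrane compartment and, when bound to GTP, recruits the motors, tethers and docking proteins that move its vesicles. A vesicle that reaches its target is held there by a tether such as the exocyst, and it fuses when a VAMP on the vesicle zippers with a syntaxin and a SNAP protein on the target membrane. Many synaptotagmins add a calcium trigger to that step, UNC13 proteins prime it, and some syntaxin-binding proteins control access to the syntaxin. Luminal cells of the mammary gland send membrane and secreted proteins to separate apical and basolateral surfaces, and those primed for milk production later use this machinery for secretion.

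The deposited values are log2 array signals with a floor at a signal of 10, and where a pair of values is given, Venus High comes first. The table has 0 probe sets that are lower in Venus High cells, so every difference below is 0 or higher by construction, and any member with a lower signal there is not analysed here. Of 127 protein-coding RefSeq genes whose symbols fit the rule, 29 are for this or other reasons not analysed here, Vamp3, Vamp8, Snap23, Stx5a and Rab35 among them. Tbx3 had a log2 signal of 8.72 in Venus High against 3.62 in Venus Low cells, and 5 of 7 listed markers of hormone-sensing cells were in the table, all with at least a 4-fold difference. None of the 6 listed alveolar markers is analysed here. Of 5 pan-luminal markers 3 were in the table, and Krt8 differed by 0.09 on the log2 scale, Krt19 by 0.98. Most markers of other cell types were at or near the floor. At it in both populations were the 4 basal markers in the table, Krt14 and Acta2 among them, the 3 leukocyte and the 3 neuroendocrine markers. Of the 2 endothelial markers, Kdr had 3.78 against the floor and the other was at it. The summed signal of 3 fibroblast markers, on a linear scale, was 85.7 in Venus High against 49.7 in Venus Low cells. Col3a1 was at the floor, and Dcn, at signals of 64.6 and 29.7, was above it in both. The part of fibroblast RNA in the results was not tested. In sorted cells a difference in signal can come from more cells that express a gene or from more RNA per cell, which cannot be told apart here.

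A small set of members stood far above the others, and 40 of the 47 that reached a signal of 100 differed by less than 2-fold. Of the 98 members, 47 reached a signal of 100 on at least 1 array, 27 stayed below it but exceeded the floor in Venus High cells, and the remaining 24 lay on the floor in both populations. Syt7, Sytl2, Rab31 and Rab27b exceeded their Venus Low level by 4-fold or more (log2 difference of at least 2), which is 4 of 47 or 8.51%, beside 8.58% of the 3847 genes past a signal of 100 in the whole table. With Stxbp6, Exoc4 and Vamp5 added, 7 of 47 or 14.9% exceeded it by 2-fold or more (log2 difference of at least 1), against 21.6% of all genes. Their median log2 difference was 0.33, and that of all genes was 0.46. The threshold on signal bears on these counts: 7 of the 47 members reached 100 in Venus High cells only, and so differ through the threshold itself, among them all 4 with a 4-fold difference. Of the 40 that also reached 100 in Venus Low cells, 2 exceeded 2-fold, Stxbp6 and Exoc4, or 5.0%, against 11.9% of such genes in the whole table. Without any minimum signal 11 of the 98 members passed 2-fold, or 11.2% against 9.93% of all genes, the 4 further ones being Stx1a, Syt17, Syt8 and Unc13d. The same 4 members passed 4-fold, or 4.08% against 3.25% of all genes. The order of the shares thus depended on the minimum signal. At the floor in both populations were 24.5% of the members and 48.2% of all genes.

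**Figure D1:**
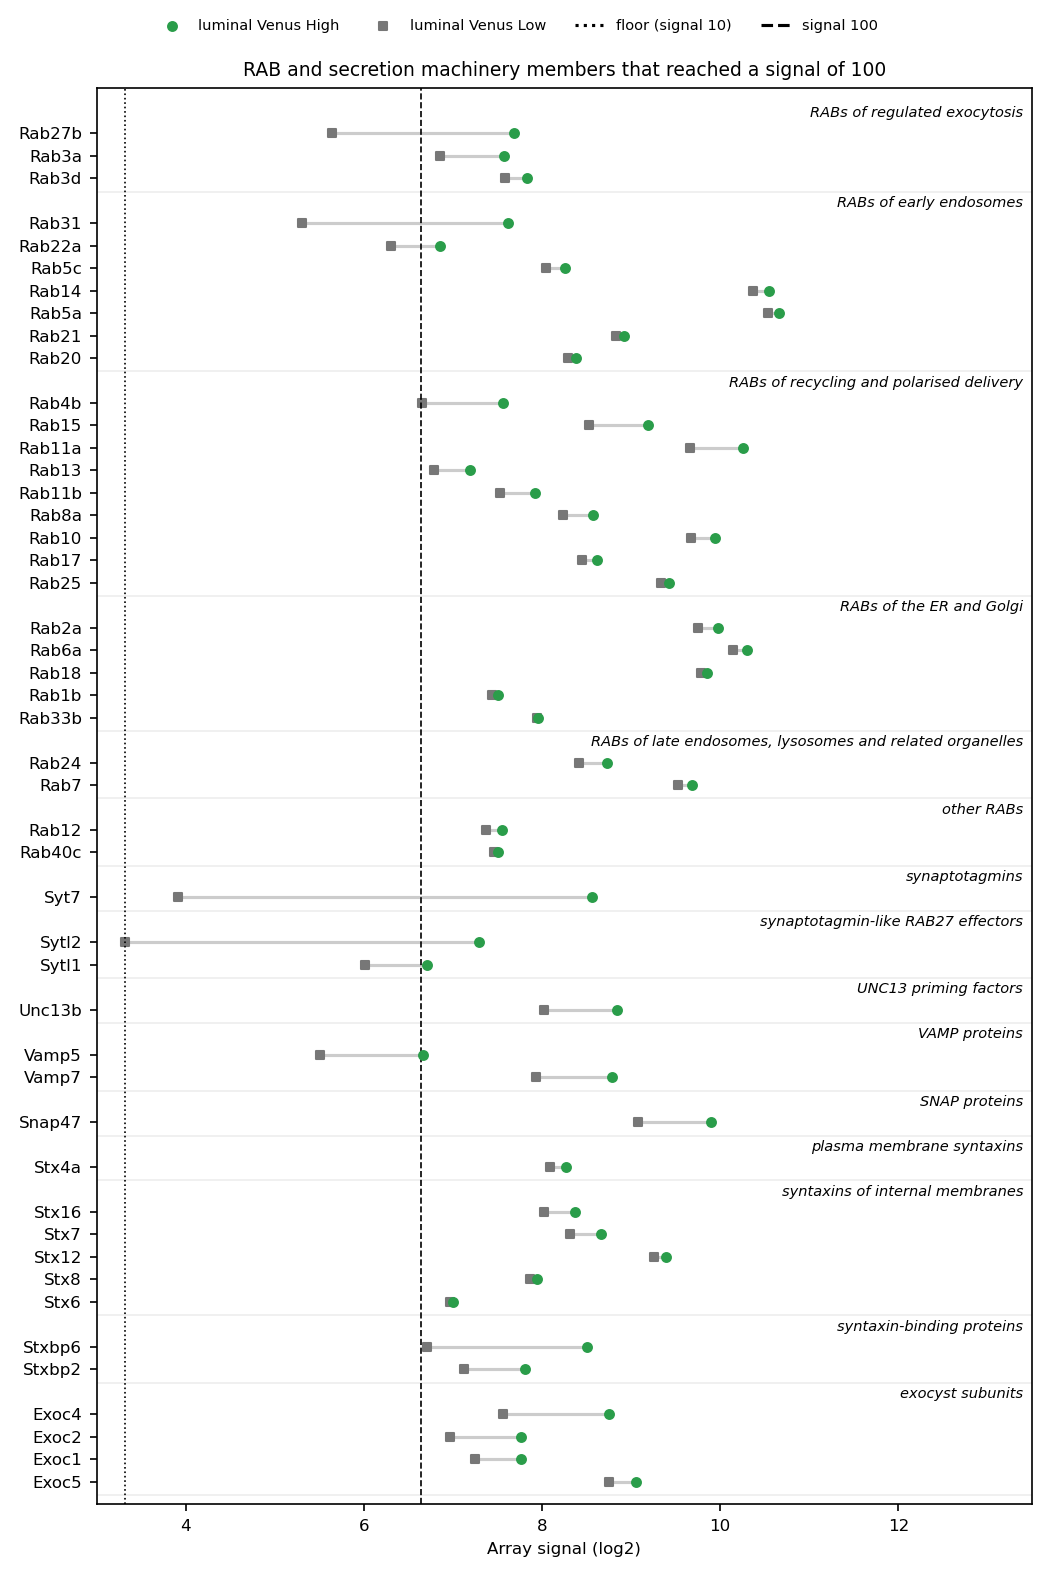
Array signal (log2, horizontal axis) of the 47 members that reached a signal of 100, with Venus High in green circles and Venus Low in grey squares, 1 array each, in blocks by role. The dotted line is the floor, a signal of 10, and the dashed line a signal of 100. Syt7 and Sytl2 have the widest gaps, and 22 members differ by less than 0.31.

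The scale of the arrays sets how the small differences read. Both arrays were centred on their medians over probe sets that reached a signal of 100 on either array, 8.21 for Venus High and 7.55 for Venus Low. This lowers every difference by 0.66. Of the 47 members 32 then fall below 0, beside 2460 of the 3847 genes past that signal. The median is -0.33 for the members and -0.20 for all genes. After quantile normalization 33 members fall below 0, beside 2498 of the 3847 genes. Of the members 10.6% pass 2-fold after median centring, beside 10.9% of all genes, so the gap seen in the deposited values is not kept there. Both scalings start from a table without lower values, so they push small differences below 0 whatever the true scale of the arrays. They cannot tell whether such a member is lower in Venus High cells. A member with a difference under 0.66 thus has no settled direction here, and its values are given as a description. The differences from probe sets of the same gene that reached a signal of 100 had a pooled SD of 0.31 over 1062 genes. For the members it was 0.23 over 15 genes. It covers disagreement within the arrays and not between animals. Dimmer probe sets are left out, and those of Syt7 and Rab31 lay further from the brightest, as given below. These SDs are taken from a table without lower probe sets and may be too small.

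Of all members Syt7 had the largest difference. Syt7, a synaptotagmin of high calcium affinity that acts in lysosome and granule exocytosis, had a log2 signal of 8.56 in Venus High against 3.91 in Venus Low cells, a 25.0-fold difference. Its other 3 probe sets were also higher in Venus High cells. They gave 7.40 against the floor (a log2 difference of at least 4.08), 6.04 against 4.23 and 3.86 against the floor. The Venus Low signal of Syt7 was 15.1 on a linear scale, near the floor of 10, so the fold depends on the floor, and with the floor raised to 100 the log2 difference is 1.91. Syt7 was the only 1 of 14 synaptotagmins that reached a signal of 100. The 8 that were at the floor in both populations include Syt1, the main calcium sensor of synaptic vesicles, and Syt4. Syt8, with log2 signals of 5.63 and 4.57, and Syt17, with 4.54 against the floor, lay below a signal of 100.

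RAB27 proteins hold secretory granules and lysosome-related organelles at the cell cortex, and synaptotagmin-like proteins are effectors that bridge RAB27 to the plasma membrane. Rab27b had a log2 signal of 7.69 in Venus High against 5.64 in Venus Low cells and was 4.14-fold higher. Its other 3 probe sets differed by 1.82, 2.42 and 0.85 on the log2 scale, the last on a probe set whose name ends in _x_at, which marks possible cross-hybridization. With the floor at 100 the difference is 1.05. Rab27a, its close paralog, had 3.84 against the floor, and 3 other probe sets of it were at the floor in both populations.

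Sytl2, the effector also called Slp2, had a log2 signal of 7.29 in Venus High cells and was at the floor in Venus Low cells on its 1 probe set, a difference of at least 15.6-fold. With the floor at 100 its log2 difference is 0.64. Sytl1, another RAB27 effector, had 6.71 and 6.01, just past a signal of 100 in Venus High cells, and Sytl4, or granuphilin, had 5.16 and 5.05. The log2 difference was thus at least 3.96 for Sytl2, 0.70 for Sytl1 and 0.11 for Sytl4, and quantile normalization takes Sytl1 to -0.03. Of the UNC13 priming factors, Unc13b had 8.84 and 8.02, a difference of 0.82. Unc13d, which is Munc13-4 and binds RAB27, had 5.43 and 4.38, below a signal of 100. Unc13a and Unc13c, known from neurons, were at the floor in both populations.

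The RAB3 proteins, also of regulated exocytosis, differed less. Rab3a had log2 values of 7.57 in Venus High against 6.85 in Venus Low cells, a difference of 0.73 that stays above 0 by 0.07 after median centring. Rab3d, which coats granules of exocrine cells, had 7.83 and 7.59 on its brightest probe set and a difference of 0.90 on another that reached a signal of 100. The gap of 0.66 between them was the widest among the 15 members with several probe sets past that signal. Rab3b, at 3.52 in Venus High cells, was near the floor, and Rab3c and Rab26 were at it in both.

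**Figure D2:**
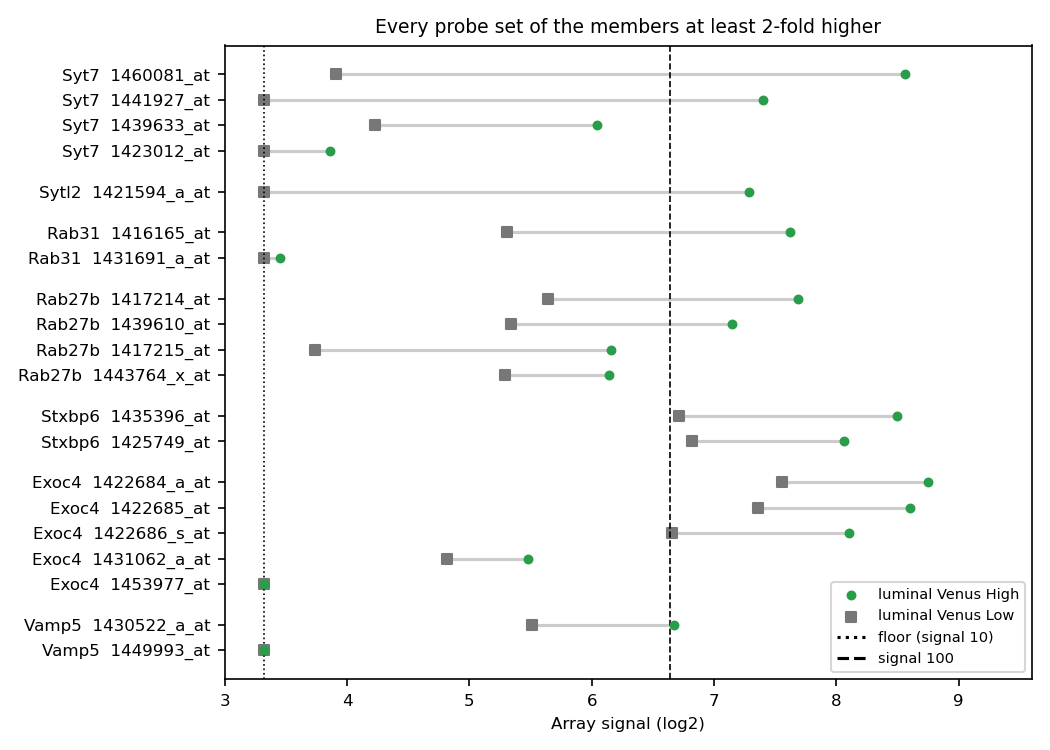
Array signal (log2, horizontal axis) on every probe set in the table of the 7 members past 2-fold, with Venus High in green circles and Venus Low in grey squares, 1 array each. The dotted line is the floor and the dashed line a signal of 100. All 4 probe sets of Syt7 and all 4 of Rab27b lie to the right in Venus High cells, and 1 probe set each of Exoc4 and Vamp5 is at the floor in both populations.

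Among the RABs of early endosomes, where material taken up from the surface is sorted, Rab31 stood apart from its relatives. Rab31, also known as Rab22b, which acts between the trans-Golgi network and endosomes, had a log2 signal of 7.62 in Venus High against 5.31 in Venus Low cells and was 4.95-fold higher. Its other probe set gave 3.45 against the floor. With the floor at 100 the log2 difference is 0.98. Rab22a, its nearest relative by name and family, had 6.86 and 6.30, a difference of 0.56. The other 5 that reached a signal of 100, Rab5a, Rab5c, Rab14, Rab20 and Rab21, had differences of 0.08 to 0.22 on their brightest probe sets. Other Rab14 probe sets past that signal gave up to 0.48. Rab5a, the master RAB of early endosome fusion, had 10.66 and 10.54, and Rab14, which serves both Golgi and endosomes, had 10.55 and 10.37.

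The start sites of the higher members are shown for Rab31 and Stxbp6, the 2 largest differences among the members with a promoter in the RefSeq set used here (GRCm38.p6). The set matched 80 of the 98 members. The 250 bases before the start site are printed on the strand of the gene, 5′ to 3′, for Rab31 at chr17:65772753-65773002 on the minus strand and for Stxbp6 at chr12:45074484-45074733 on the minus strand. Capitals mark CG dinucleotides, of which each holds 12, where the median of all promoters is 6 and that of the members is 15.
Rab31: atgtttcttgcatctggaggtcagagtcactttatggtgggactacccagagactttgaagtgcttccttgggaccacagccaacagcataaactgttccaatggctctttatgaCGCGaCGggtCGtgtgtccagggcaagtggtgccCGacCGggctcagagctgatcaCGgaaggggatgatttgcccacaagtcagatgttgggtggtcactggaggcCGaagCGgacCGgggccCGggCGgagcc
Stxbp6: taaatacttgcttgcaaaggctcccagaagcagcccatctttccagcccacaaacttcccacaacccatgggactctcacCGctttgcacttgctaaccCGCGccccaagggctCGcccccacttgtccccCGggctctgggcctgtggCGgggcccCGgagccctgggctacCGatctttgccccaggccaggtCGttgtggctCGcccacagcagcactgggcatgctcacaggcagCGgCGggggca

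The T-box half-site AGGTGTGA was searched on both strands, from 250 bases before to 50 after the start site. It was in neither of these windows nor in those of Exoc4 and Vamp5. Syt7, Sytl2 and Rab27b have no promoter in the set and were not searched. Over the members 1 of 102 promoters held it, that of Rab27a, or 0.98%, and over all 32851 promoters 1.28% did. A match describes letters in this window and not binding.

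RABs of recycling and polarised delivery bring membrane and receptors back to the surface and sort them to the apical or basolateral side. Of these 10 RABs, 9 reached a signal of 100 and 0 passed 2-fold, against 21.6% of all genes that reached that signal. Rab4b, of fast recycling, had the widest difference, with log2 signals of 7.56 and 6.65. Rab15 followed with 9.19 and 8.53, and Rab11a, the RAB of recycling endosomes and apical transport, with 10.26 and 9.66. Median centring takes Rab15 to about 0 and Rab11a to -0.06, and Rab4b keeps a difference of 0.25. Rab25, an epithelial relative of Rab11a, had 9.43 and 9.34, and Rab17, another epithelial RAB, had 8.62 and 8.45. The difference was 0.39 for Rab11b, 0.40 for Rab13, 0.33 for Rab8a and 0.27 for Rab10. Rab8b was at the floor in both populations.

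The RABs of the ER and Golgi gave the smallest median difference of the RAB groups, over members that reached a signal of 100. Rab1b, of ER-to-Golgi transport, had log2 values of 7.51 in Venus High against 7.44 in Venus Low cells, and Rab6a, of transport at the Golgi, had 10.30 and 10.14. Rab2a differed by 0.22, Rab18, found on the ER and lipid droplets, by 0.07, and Rab33b by 0.02. The median of these 5 was 0.07. Rab1a, with 6.54 and 6.16, fell short of a signal of 100 on its 1 probe set. Late endosomes and lysosomes showed similar values: Rab7, which drives fusion with lysosomes, had 9.68 and 9.53, and Rab24, linked to autophagy, had 8.73 and 8.41. Rab38, of melanosomes and other lysosome-related organelles, had 5.71 and 4.98, below a signal of 100. Of the other RABs, Rab12 and Rab40c reached a signal of 100, with differences of 0.17 and 0.05. Over all 28 RAB genes that reached it the median difference was 0.22, and it was 0.70 over the 19 other members. Rab31 and Rab27b were the 2 RABs past 2-fold, or 7.14% of the 28, against 21.6% of all genes.

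**Figure D3:**
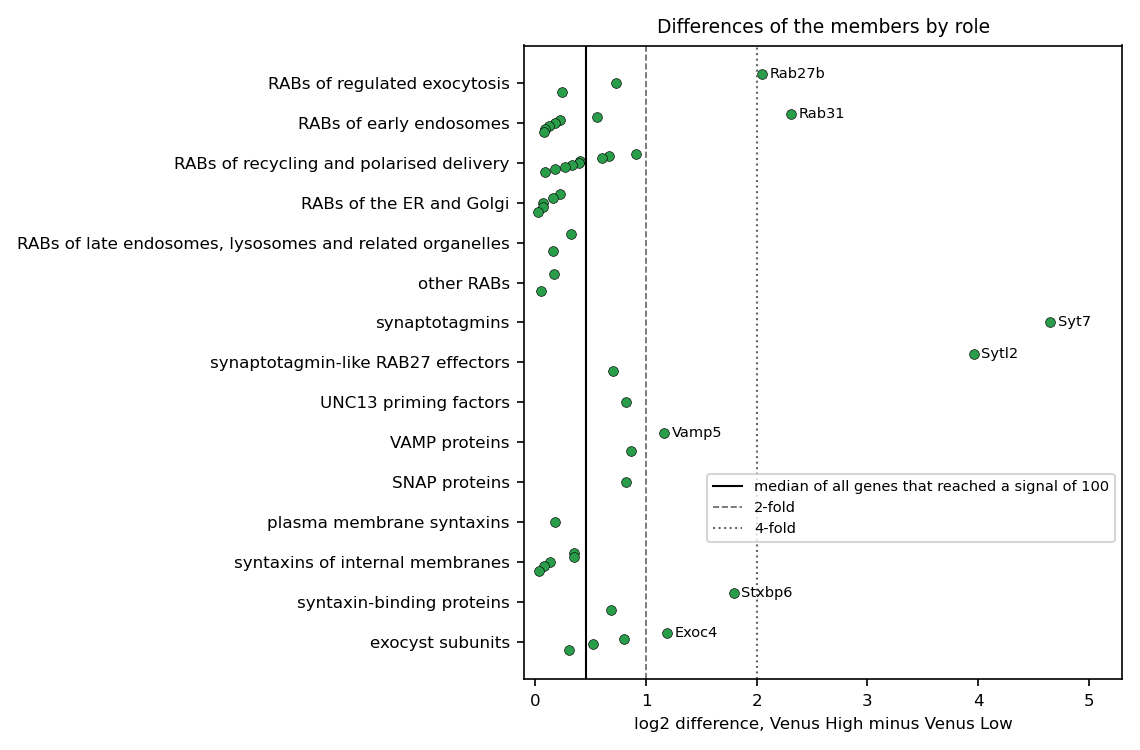
Log2 difference, Venus High minus Venus Low (horizontal axis), of the 47 members that reached a signal of 100, 1 point per gene, in rows by role. The solid line is the median of all genes that reached it, 0.46, and the broken lines mark 2-fold and 4-fold. The 7 members past 2-fold are named, and points of the ER and Golgi RABs lie between 0.02 and 0.22.

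The SNARE proteins carry out fusion. Vamp7, the VAMP of late endosomes and lysosome exocytosis, had log2 values of 8.79 in Venus High against 7.93 in Venus Low cells, and its other probe set differed by 0.74, so both lay under 2-fold. Vamp5 had 6.67 and 5.51 and was 2.23-fold higher. Its Venus High signal of 102 was only just past 100, the difference is 0.02 with the floor at 100, and the second probe set was at the floor in both populations. Vamp4, of the trans-Golgi network, had 6.21 and 5.59, Vamp2, the VAMP of synaptic vesicles, had 3.88 against the floor, and Vamp1 was at it on both arrays.

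Snap47 was the SNAP protein that reached a signal of 100. It had log2 values of 9.90 in Venus High against 9.08 in Venus Low cells, a difference of 0.82, on a probe set ending in _x_at, and of 1.35 on its other probe set. Snap29, a broadly used SNAP of endosomes and autophagosomes, had 6.49 and 5.91, below a signal of 100. Snap25, the neuronal SNAP, was at the floor in both populations, as was Snap91, a clathrin assembly protein that shares the symbol and not the role.

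Of the syntaxins of the plasma membrane, Stx4a had log2 values of 8.27 in Venus High against 8.09 in Venus Low cells. Stx1a, the syntaxin of neuronal and endocrine exocytosis, had 6.55 and 5.43, just below a signal of 100, on a probe set ending in _x_at, and 3.66 and 3.49 on the other. Stx11 had 6.43 and 6.13, Stx2 had 4.49 and 3.57, and Stx3, an apical syntaxin, was at the floor on its 1 probe set. The 5 syntaxins of internal membranes that reached a signal of 100 were Stx6, Stx7, Stx8, Stx12 and Stx16. Their brightest probe sets had differences of 0.03 to 0.35, and another Stx8 probe set past that signal gave 0.53. Stx7, of late endosomes, had 8.66 and 8.31, and Stx12, also called syntaxin 13, of recycling endosomes, had 9.39 and 9.26. These 5 all fall below 0 after median centring.

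Stxbp6, or amisyn, binds SNARE partners through a VAMP-like domain and is known to hold back vesicle fusion. It had a log2 signal of 8.50 in Venus High against 6.71 in Venus Low cells and was 3.46-fold higher. Its other probe set had 8.06 and 6.82, a difference of 1.24. Both signals were past 100 on both arrays, and the difference stays at 1.79 with the floor at 100 and is 1.13 after median centring. Stxbp2, which is Munc18-2, the partner of apical syntaxins in epithelia, had 7.81 and 7.13, a difference of 0.68. Stxbp4 had 4.72 and 4.59.

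Subunits of the exocyst, the complex that tethers vesicles at the plasma membrane, differed by unequal amounts. Exoc4, or Sec8, had log2 values of 8.75 in Venus High against 7.56 in Venus Low cells and was 2.27-fold higher. A pair of other probe sets past a signal of 100 gave 1.24 and 1.44, and the remaining ones 0.66 and 0, the last at the floor in both populations. Exoc2, or Sec5, which binds the GTPase RalA, had 7.77 and 6.97, a difference of 0.80. Exoc1 had 7.77 and 7.25, and Exoc5, or Sec10, had 9.05 and 8.75. Exoc6, or Sec15, an effector of RAB11, had 6.20 and 6.11, below a signal of 100, and Exoc8 was at the floor on its 1 probe set. After median centring Exoc4 keeps a difference of 0.53 and Exoc2 of 0.14, and Exoc1 and Exoc5 fall below 0.

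**Figure D4:**
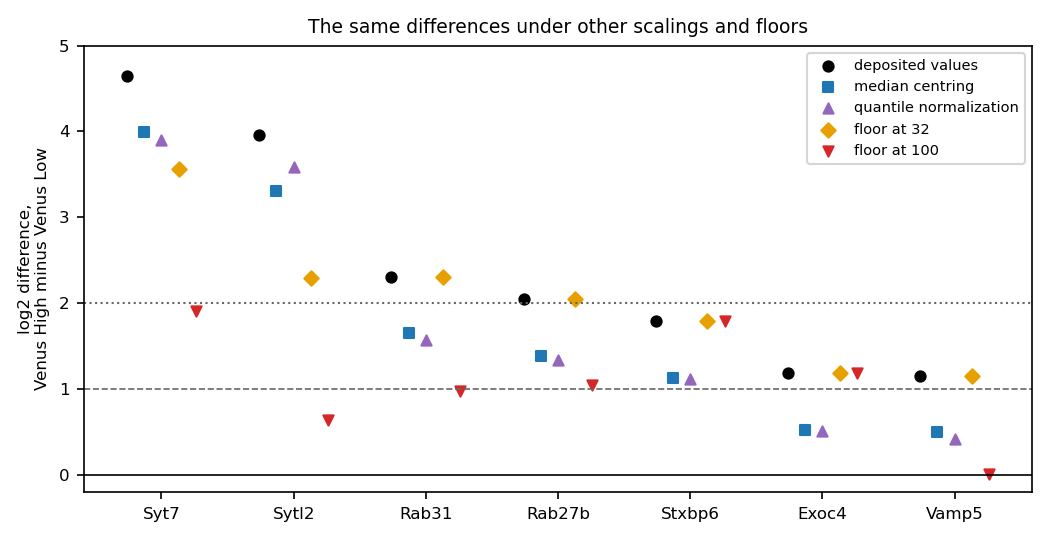
Log2 difference (vertical axis) of the 7 members past 2-fold, from the deposited values and under other scalings and floors. Broken lines mark 2-fold and 4-fold. With the floor at 100, Sytl2 drops to 0.64 and Vamp5 to 0.02, and Stxbp6 and Exoc4 keep their values.

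Partners of the members were counted from lists. Of 54 listed RAB regulators and effectors, 34 were in the table, 16 of them reached a signal of 100 and 5 passed 2-fold, or 31.2%, beside the 21.6% of all genes. Their median difference was 0.45. Of the 11 that also reached 100 in Venus Low cells 3 passed 2-fold, or 27.3%, against 11.9% of such genes in the whole table. Mlph, or melanophilin, which links RAB27A to myosin Va, had log2 values of 9.72 in Venus High against 7.86 in Venus Low cells and was 3.64-fold higher. Rab3ip, or Rabin8, an exchange factor for RAB8, had 9.90 and 8.72. Evi5, a GTPase-activating protein linked to RAB11, had 8.82 and 7.54. Rilpl1 and Tbc1d1 differed by 1.08 and 1.02, and with the floor at 100 by 0.85 and 0.63. After median centring Mlph alone of the 16 stays above 2-fold, at 1.20, where 10.9% of all genes do. Gdi2, which extracts RABs from membranes, had 11.33 and 11.20.

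Of 35 listed symbols of other SNAREs and fusion factors, 28 were in the table and 9 of them reached a signal of 100. Their median was 0.33, and 0 of the 9 passed 2-fold, against 21.6% of all genes. The symbols not found include Amisyn, which is Stxbp6 above, and Sec20, another name of the listed Bnip1. Nsf, the ATPase that takes SNARE complexes apart, had log2 values of 7.41 in Venus High against 7.25 in Venus Low cells, and Vti1b had 9.97 and 9.29. Of 29 listed genes of secretory granule cargo and processing, 26 were in the table, and 18 of these, or 69.2% against 48.2% of all genes, were at the floor in both populations, including Chga, Chgb and Scg2, which encode granins, the cargo of endocrine granules. Among the 3 that reached a signal of 100, Syngr2, a vesicle membrane protein, had 10.40 and 9.38, and Pam, which amidates peptides, had 7.65 and 6.64. Both lay just past 2-fold, by 1.02 and 1.01, and both fall under 2-fold after median centring. They are 66.7% of only 3 genes, beside 21.6% of all genes. Of 34 listed genes of COPI, COPII and Golgi export coats, 22 were in the table. A signal of 100 was reached by 21 of them, with a median difference of 0.47. Past 2-fold were 2, or 9.52%, against 21.6% of all genes. These were the TRAPP tether subunits Trappc1, with 8.64 and 7.14, and Trappc4, with 9.0 and 7.86, and median centring takes both under 2-fold, to 0.84 and 0.48. Arf1, a GTPase that recruits COPI, had 12.40 and 12.38.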

How the data were processed

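Labelled cRNA from 250 ng of total RNA (RNA integrity number above 9.4) of each population was hybridized to a Mouse Genome 430 2.0 chip (Affymetrix). The deposited values are log2 signals. Per the methods the authors took log2 and used BRB Array software to normalize and centre each sample. MAS5 is named in the submitters' notes on processing. What the values were scaled to is not given in the sources used. The number of arrays limits the precision.

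Of 29338 probe sets, 22223 had 1 gene symbol in the platform annotation, 602 several and 6513 none. Genes were named from the first kind only, and updating symbols through gene identifiers changed neither count of higher members. A gene took the values of its brightest probe set, by mean log2 over both arrays. A gene counted as higher at a log2 difference of at least 2 (4-fold) or 1 (2-fold) with a signal of at least 100 on either array. With 1 array per population no test was run. Every member that reached a signal of 100 is named, with those just below it, and from each further list up to 5 genes at least 2-fold higher. Some other genes were chosen after their values were seen. Members, roles, lists and alternatives were chosen with earlier results of these data known. The computation used pandas 2.3.3 and numpy 2.4.6 under Python 3.11.15, with plots by matplotlib 3.10.9, and was tested on simulated data. The simulation raised only probe sets with a signal of at least 100 in Venus Low cells. It thus does not cover the setting of the members past 4-fold.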

Additional observations from a re-analysis of the deposited data

How the results depend on the processing

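Of the members, 4 were at least 4-fold higher in the deposited values. The count was 2 after median centring (4.26% against 5.74% of all genes) and 2 after quantile normalization (4.26% against 5.59%). It was also 2 at an 8-fold threshold (4.26% against 4.76%), with Syt7 and Sytl2 in each. With the median over probe sets of each gene it was 2 (5.0% against 8.88%), the same pair. It was 2 with a minimum signal of 200 (5.71% against 9.24%), Syt7 and Rab27b, and 0 with the floor at 100 (0.0% against 4.39%). The 7 members at least 2-fold higher became 4 with the floor at 100 (8.51% against 15.1% of all genes), 4 with a minimum signal of 200 (11.4% against 21.9%), 11 with no minimum signal (11.2% against 9.93%) and 17 at a 1.5-fold threshold (36.2% against 41.2%). They were 5 after median centring (10.6% against 10.9%) and 5 after quantile normalization (10.6% of both), without Exoc4 and Vamp5, and 6 with the median over probe sets (15.0% against 21.8%), with Snap47 and without Rab31 and Vamp5. Both counts stayed within 1.5 times under the other alternatives, which were a floor at 32, leaving out probe sets that can cross-hybridize or hit several transcripts (_a_at, _s_at, _x_at), a minimum signal of 50 and updated symbols. The median log2 difference of the members, 0.33, turned to -0.33 after median centring and to -0.34 after quantile normalization, where the median of all genes was -0.20 and -0.22. These scalings lower differences of a table without lower values, so the sign of the median has no settled direction. Under them none of the 7 members fell below 0. Without the _a_at, _s_at and _x_at ones, Sytl2 has no probe set left and Vamp5 is at the floor on both arrays. No paired analysis was possible because each population is 1 array. Signals near the floor limit the folds of Syt7 and Sytl2.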
